A study of Mus musculus with 24 samples.

Results

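Voltage-gated sodium channel genes were followed in bulk RNA sequencing of mouse brain. The set holds 8 genes, chosen by symbol: the pore-forming alpha subunit genes Scn1a, Scn2a, Scn3a, Scn8a and Scn9a, and the auxiliary beta subunit genes Scn2b, Scn3b and Scn4b. These are 8 of 40836 rows of the count table, and all 8 are among the 20437 genes that passed a filter on low counts. The 24 libraries were made from polyadenylated RNA of tissue labelled as brain, with no region named. The library names combine an E code with a time code, which gives 6 groups of 4 numbered libraries: E3-05, E3-10, E3-15, E4-05, E4-10 and E4-15. The labels spell out neither code and give no strain, age, sex, treatment or allele. The series title concerns ApoE4 and microglial lipids, so the contrast of E4 with E3 is treated as the leading one. The titles call them biological replicates without tying each to an animal of its own, so a p-value measures only how these samples spread, which may be technical.

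An alpha subunit forms the sodium-selective pore that opens on depolarization and carries the rising phase of the action potential. Beta subunits are single-pass membrane proteins that tune gating and surface density and also act as adhesion molecules. In mature brain, channels cluster at the axon initial segment and at nodes of Ranvier, held there by ankyrin G and a spectrin scaffold. The subunits differ in where they are used: Scn1a is prominent in fast-spiking inhibitory neurons and Purkinje cells, Scn2a in unmyelinated axons of excitatory neurons, Scn8a at mature initial segments and nodes, Scn3a mainly before and around birth, and Scn9a in peripheral sensory neurons.

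One difference among the libraries runs across the labelled groups. The count table's columns are numbered, and the 8 libraries whose number is a multiple of 3 are rich in cerebellar and hindbrain transcripts. They are called hindbrain-rich here, and the remaining 16 are called the other libraries. The 6 listed cerebellar granule cell genes averaged 7.06 to 9.31 log2 CPM in the hindbrain-rich libraries and 0.86 to 4.32 in the others. CPM are counts scaled by the library total and its normalization factor to a common depth. The granule cell receptor gene Gabra6 was at 85.5 to 533 CPM in the hindbrain-rich libraries and at 0 to 4.63 CPM in the others. The striatal dopamine receptor gene Drd1 was at 0.811 to 2.55 CPM in the first set and at 10.6 to 115 CPM in the second. The list of 10 pan-neuronal genes averaged 8.96 to 9.56 against 8.88 to 9.27 log2 CPM. Hindbrain-rich libraries number 1 of 4 in E3-05, E3-15, E4-05 and E4-10 and 2 of 4 in E3-10 and E4-15, so every E code and time comparison was fitted with a term for this set. The depth of a library lay between 37.4 M and 99.5 M counts (M, mega), and its median was 48.8 M.

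In the reference annotation the members lie on chromosomes 2, 9 and 15. On chromosome 2 the order is Scn3a, Scn2a, 3 other protein-coding genes, Scn1a, Scn9a and Scn7a. On chromosome 9 Scn2b and Scn4b are direct neighbours, with 0 protein-coding genes between them, while 61 such genes separate Scn3b from Scn2b. Scn8a is the single member on chromosome 15. Promoter sequences from RefSeq (build GRCm38.p6) matched 6 of the 8 members, with 8 start sites in all. The 250 bases before a start site are shown for the neighbours Scn2b and Scn4b and for the alpha subunit genes Scn1a and Scn2a, because the genes within each pair differed in how they varied across the libraries. Each sequence is given 5′ to 3′ on the gene's strand, and capitals mark CG dinucleotides. The positions belong to this build, not to the build used for counting.
Scn1a, chr2:66440838-66441087, minus strand: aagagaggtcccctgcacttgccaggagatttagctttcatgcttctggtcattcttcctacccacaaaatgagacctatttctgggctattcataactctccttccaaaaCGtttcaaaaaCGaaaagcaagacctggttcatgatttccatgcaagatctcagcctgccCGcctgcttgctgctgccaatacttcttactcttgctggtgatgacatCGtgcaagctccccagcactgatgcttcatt
Scn2a, chr2:65620519-65620768, plus strand: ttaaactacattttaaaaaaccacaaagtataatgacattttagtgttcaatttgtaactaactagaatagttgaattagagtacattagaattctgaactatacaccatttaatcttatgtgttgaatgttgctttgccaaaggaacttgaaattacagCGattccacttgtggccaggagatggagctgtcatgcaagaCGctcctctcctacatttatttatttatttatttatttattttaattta
Scn2b, chr9:45117626-45117875, plus strand: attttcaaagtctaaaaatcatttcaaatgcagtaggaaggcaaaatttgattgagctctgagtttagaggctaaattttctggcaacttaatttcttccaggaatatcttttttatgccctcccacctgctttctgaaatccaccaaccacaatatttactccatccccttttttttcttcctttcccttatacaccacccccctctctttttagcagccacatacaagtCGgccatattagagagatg
Scn4b, chr9:45138374-45138623, plus strand: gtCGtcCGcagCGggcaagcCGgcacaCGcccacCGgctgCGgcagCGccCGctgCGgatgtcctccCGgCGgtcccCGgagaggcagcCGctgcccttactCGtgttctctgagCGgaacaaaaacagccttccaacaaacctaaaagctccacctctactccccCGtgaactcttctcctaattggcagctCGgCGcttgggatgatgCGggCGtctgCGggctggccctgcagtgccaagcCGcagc

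The Scn2b window holds 1 CG dinucleotide, and 92.1% of 32851 promoter windows of this length hold as many or more. The window of its neighbour Scn4b holds 23, a number reached by 13.3% of windows. Scn2a has 2 in the window shown and 9 before a second start site, Scn1a has 4, and Scn9a has 5. Scn8a has 30 before one of its start sites, reached by 5.94% of windows, and 9 before the other. The median over all windows is 6. The letters TATAAA, searched on both strands, occur in 12.4% of all windows and among these 8 windows at the second Scn2a start site alone. The windows thus span CG-poor and CG-rich sequence. They are a description of the reference genome, and nothing measured here bears on their methylation or on the use of a start site.

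To rank the genes, levels were taken per kilobase of exon, using medians over libraries. In the 16 other libraries Scn2b stood highest of the 8 at 82.4 CPM per kilobase, followed by Scn4b at 66.4. Scn2a at 30.5, Scn3b at 29.5, Scn8a at 27.4 and Scn1a at 22.7 formed a middle group by median. Their ranges overlapped each other and also that of Scn4b, which ran from 26.9 to 180. Scn3a at 4.47 and Scn9a at 0.557 were low. In the hindbrain-rich libraries the order of medians was Scn2b at 77.1, Scn4b at 46.9, Scn1a at 29.6, Scn8a at 26.9 and Scn2a at 24.2. There Scn3b at 6.09 fell out of the middle group, and Scn3a at 1.27 and Scn9a at 0.535 were again low.

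**Figure D1:**
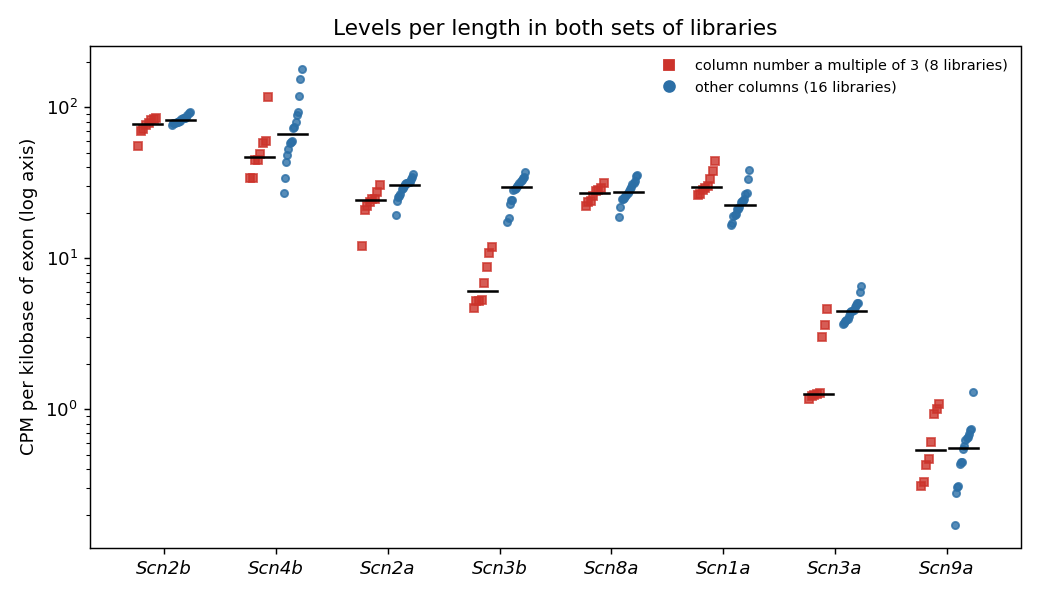
CPM per kilobase of exon on a log axis for each of the 8 genes, with squares for the 8 hindbrain-rich libraries, circles for the 16 other libraries and bars for medians. Scn3b has a median of 29.5 in the other libraries and 6.09 in the hindbrain-rich ones, whereas Scn8a has 27.4 and 26.9.

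The 8 genes did not share a direction between the hindbrain-rich and the other libraries. Scn3b and Scn3a were far lower in the hindbrain-rich set. Scn2a, Scn4b and Scn2b were slightly lower, and Scn1a was higher. The differences of Scn8a and Scn9a were smaller than their standard errors. Each difference is a log2 fold change with its standard error (SE), taken from edgeR's fit. The split was found from expression in these libraries, so it is described and no p-value is given for it. In bulk tissue, fewer cells of a type and less RNA per cell cannot be told apart. Of the 8, 6 had a difference below 0 and the median was -0.24, while the median over all 20437 genes was 0.04. A difference larger than 1 in size was seen for 2 of 8 members and for 18.6% of all genes.

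Scn3b, a beta subunit that binds the alpha subunit without a disulfide bond, had 25.7, 59.4, 28.4, 47.9, 28.3, 65.2, 28.8 and 37.7 CPM in the hindbrain-rich libraries E3-05 2, E3-10 1, E3-10 4, E3-15 3, E4-05 3, E4-10 2, E4-15 1 and E4-15 4. In the 16 other libraries it ranged from 95.3 to 204 CPM, with a median of 161. Every hindbrain-rich library was below every other library. The log2 difference was -1.99 (SE 0.19), which is 3.97-fold lower. Among the 8 members Scn3b was the single gene whose ranges did not overlap. Over all genes, 7.72% were lower in the hindbrain-rich set with no overlap and 5.97% were higher.

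Scn3a, the alpha subunit known from developing brain, had 15.7, 57.0, 15.9, 37.4, 14.6, 44.7, 15.5 and 15.3 CPM in the same 8 libraries in the same order. The 16 other libraries ranged from 45.9 to 81.5 CPM, with a median of 55.7. Of the 8 hindbrain-rich libraries 7 lay below the lowest other library, and E3-10 1 at 57.0 CPM lay inside the range of the others. The log2 difference was -1.15 (SE 0.23). Without E3-10 1 the ranges of Scn3a did not overlap either, which gives 2 of 8 members, while the count over all genes rose from 2798 to 3820.

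Scn1a and Scn2a, of the same cluster on chromosome 2, leaned in opposite directions. Scn1a, whose loss of function causes severe childhood epilepsy in humans, ranged from 293 to 490 CPM with a median of 330 in the hindbrain-rich libraries. In the others it ranged from 185 to 426 CPM with a median of 253, so the ranges overlapped broadly. The log2 difference of Scn1a was 0.43 (SE 0.13). Scn2a ranged from 154 to 392 CPM with a median of 308 in the hindbrain-rich libraries and from 247 to 459 CPM with a median of 388 in the others. Its log2 difference was -0.34 (SE 0.11), and 1 of 8 hindbrain-rich libraries, E3-10 1, lay below the lowest other library.

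The ratio of Scn1a to Scn2a counts, which does not depend on the scaling between libraries, had a median of 1.14 in the hindbrain-rich set and 0.647 in the others. It was highest in the hindbrain-rich library E3-10 1, at 3.17. The next highest, 1.72, was in E4-05 4, one of the other libraries. E4-05 4 also had the highest Scn1a of the other libraries, at 426 CPM, and the lowest Scn2a, at 247 CPM. E3-10 3 came next for both genes, with 374 CPM of Scn1a and 304 CPM of Scn2a. The list of 5 thalamic genes was highest in these same libraries, averaging 7.70 log2 CPM in E4-05 4 and 7.39 in E3-10 3 against 3.69 to 6.72 in the remaining other libraries. The part of thalamic tissue in the ratio was not tested.

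Scn8a, the alpha subunit of mature nodes and initial segments, ranged from 352 to 500 CPM in the hindbrain-rich libraries and from 297 to 558 CPM in the others. The log2 difference was -0.08 (SE 0.10), and its sign depended on the scaling, since the mean difference was -0.058 with normalization factors and 0.045 without them. Scn9a, the alpha subunit of pain-sensing neurons, was the lowest of the 8, at 3.96 to 13.7 CPM against 2.19 to 16.5 CPM. The log2 difference of Scn9a was 0.27 (SE 0.30), which is within its error. Scn9a shares 180 exon bases with the antisense gene Gm13629, which had 80 to 530 counts. The strand setting of the counting is not stated, so reads of these genes cannot be told apart where they overlap.

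Scn2b, which is tied to the alpha subunit by a disulfide bond, varied little. It ranged from 256 to 395 CPM in the hindbrain-rich libraries and from 355 to 433 CPM in the others, with a log2 difference of -0.15 (SE 0.06), and 4 of 8 hindbrain-rich libraries lay below the lowest other library. Its neighbour Scn4b, a beta subunit known for resurgent sodium current, ranged from 170 to 583 CPM in the hindbrain-rich set and from 134 to 896 CPM in the others. The log2 difference of Scn4b was -0.42 (SE 0.29), with full overlap. The adjacent genes thus had very different spreads: the SD over 24 libraries was 36.2 CPM around a mean of 375 for Scn2b and 192 CPM around a mean of 349 for Scn4b.

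**Figure D2:**
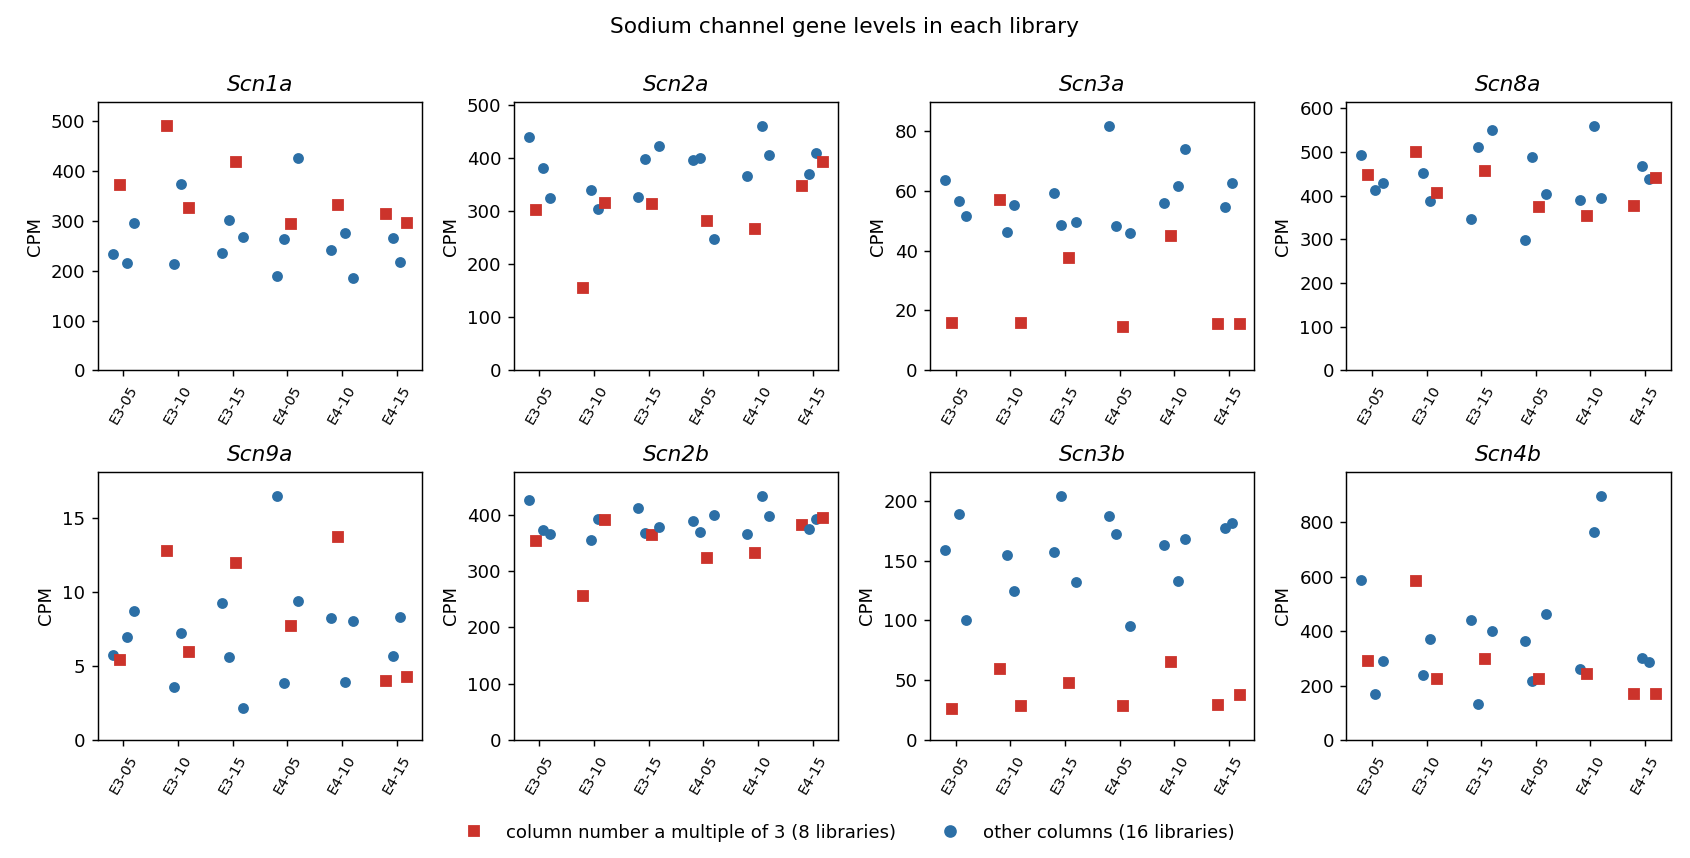
CPM of each gene in each of the 24 libraries, arranged by E code and time code (each axis starts at 0), with squares for hindbrain-rich and circles for other libraries. Squares lie below all circles for Scn3b (25.7 to 65.2 against 95.3 to 204), and Scn2b stays within 256 to 433 CPM throughout.

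The balance of beta subunit transcripts differed between the sets. The ratio of Scn3b to Scn2b counts was 0.0726 to 0.232 in the hindbrain-rich libraries and 0.238 to 0.553 in the others, with no overlap. The ratio of Scn4b to Scn2b was 0.429 to 2.28 against 0.364 to 2.25. A within-library ratio shows unequal change of its 2 genes and does not show which of them changed.

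**Figure D3:**
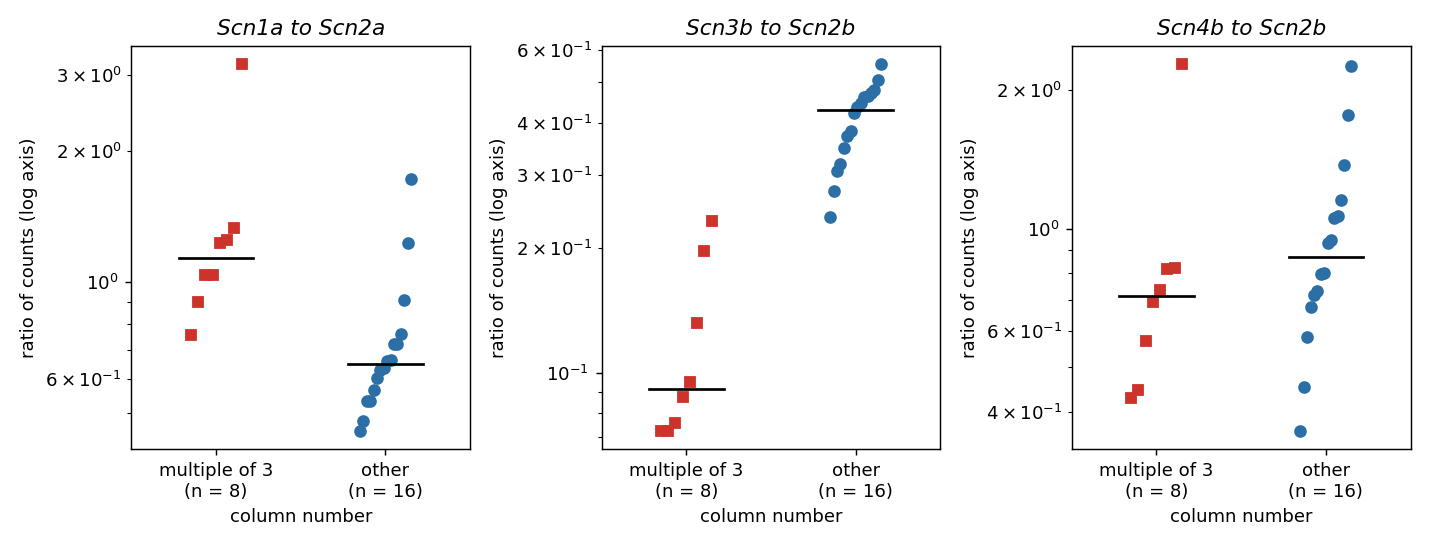
Ratios of counts within a library on log axes for 3 gene pairs, with squares for the 8 hindbrain-rich libraries, circles for the 16 others and bars for medians. The Scn3b to Scn2b ratios of both sets do not overlap (0.0726 to 0.232 and 0.238 to 0.553), whereas the other pairs overlap.

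The hindbrain-rich libraries were not alike in these genes. In E3-10 1, E4-10 2 and E3-15 3 Scn3a was at 37.4 to 57.0 CPM, while it was at 14.6 to 15.9 CPM in the remaining 5. The same 3 libraries had 47.9 to 65.2 CPM of Scn3b and 12.0 to 13.7 CPM of Scn9a, against 25.7 to 37.7 CPM and 3.96 to 7.70 CPM in the remaining 5. These 3 libraries had the lowest averages of the granule cell list within the set, at 7.06, 8.09 and 8.67 log2 CPM, and the remaining 5 averaged 8.90 to 9.31. The Purkinje list gave the same 3 libraries as lowest, at 7.01, 8.07 and 8.61 against 8.74 to 9.11. The hindbrain and spinal list did not follow this order, since E3-05 2, with 15.7 CPM of Scn3a, averaged 4.56 on it and E4-10 2, with 44.7 CPM, averaged 3.41. Within the set the striatal list was highest in E3-10 1, E4-10 2 and E3-15 3, at 4.25, 4.09 and 3.85 log2 CPM. The remaining 5 averaged 3.41 to 3.59 on it. Genes of this list did not share that order. Drd2 was highest in these 3, at 15.1, 17.2 and 12.7 CPM against 6.31 to 9.76 CPM in the remaining 5. Ppp1r1b was lowest in them, at 57.9, 64.3 and 75.9 CPM against 103 to 113 CPM. Drd1 was at 1.16, 2.55 and 1.08 CPM against 0.811 to 1.94 CPM. E4-10 2 also held 6099 CPM of the pituitary hormone gene Gh. The part of any of these tissues in the sodium channel levels was not tested.

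Among the other libraries Scn4b had the largest SD in CPM of the 8 members, 209 around a mean of 386. This SD is not scaled by level or exon length. It was at 896 CPM in E4-10 4, 764 in E4-10 3 and 589 in E3-05 1, and at 134 CPM in E3-15 2. Drd1 was at 115, 95.4 and 82.6 CPM in the first 3 and at 10.6 CPM, its lowest value in the other libraries, in E3-15 2. This order was not followed throughout, because E4-05 4 had 461 CPM of Scn4b with 34.4 CPM of Drd1, and E4-05 1 had 362 CPM of Scn4b with 83.1 CPM of Drd1. In the hindbrain-rich libraries Scn4b reached 583 CPM in E3-10 1 with 1.16 CPM of Drd1. That library had the highest hindbrain and spinal average of the set, at 5.78 log2 CPM, with 622 CPM of the glycine transporter gene Slc6a5. The part of striatal or hindbrain tissue in Scn4b was not tested.

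**Figure D4:**
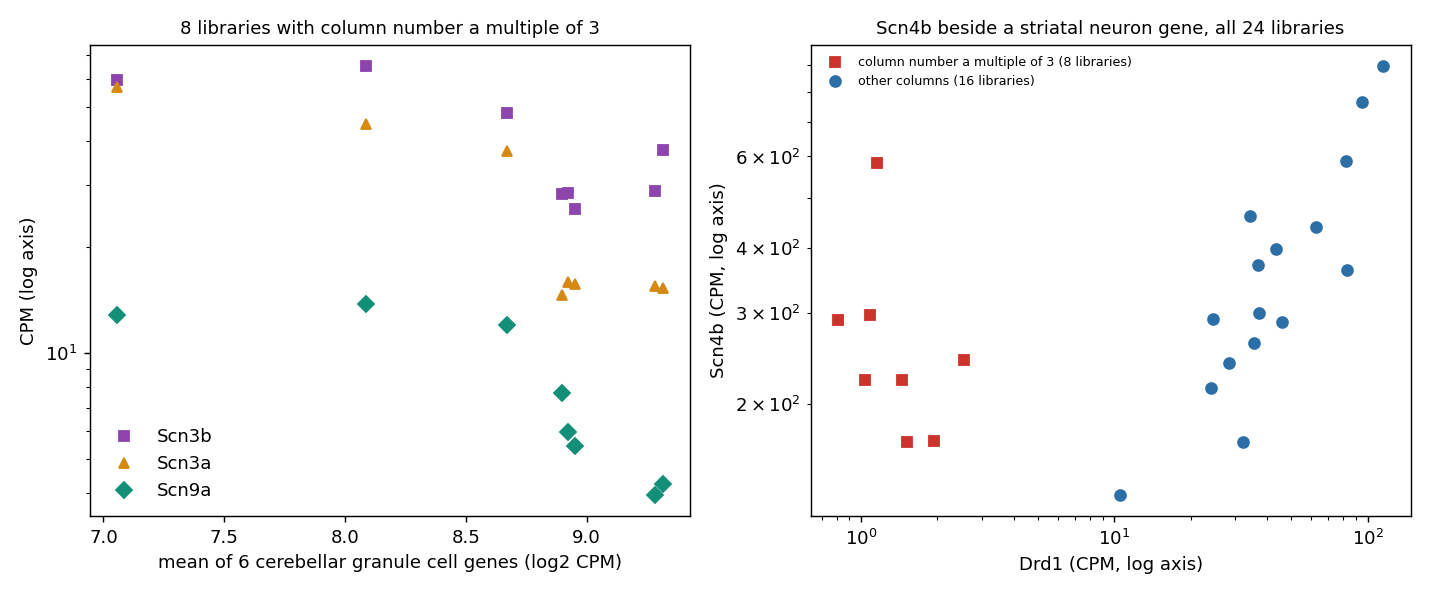
Left, CPM of Scn3b, Scn3a and Scn9a on a log axis against the mean log2 CPM of 6 granule cell genes in the 8 hindbrain-rich libraries. Right, Scn4b against Drd1 on log axes in all 24 libraries, where E4-10 4 (896 and 115 CPM) and E3-15 2 (134 and 10.6 CPM) mark the ends of the other libraries.

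No member passed the test for E4 against E3 at any time code. The test was edgeR's quasi-likelihood test with Benjamini-Hochberg adjustment over 20437 genes at 0.05. At time code 05, 0 of 8 members were called (0% of all genes), with log2 fold changes of -0.19 to 0.48. At time code 10, 0 of 8 were called (0.00979% of all genes, which is 2), with changes of -0.33 to 0.41. At time code 15, 0 of 8 were called (0% of all genes), with changes of -0.39 to 0.15. Averaged over time codes, 0 of 8 were called (0% of all genes), 4 were above 0 and 4 below, and adjusted p was 1.00 for each. DESeq2, at an adjusted p under 0.05, also called 0 of 8 members in each of these 4 comparisons. At an unadjusted p under 0.05 in edgeR, 0 of 8 members were called in any of them. The unadjusted count over all genes was 549, 1023, 391 and 557.

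The labelled groups overlapped for each member. Scn1a was at 213 to 490 CPM in the 12 E3 libraries (median 299) and at 185 to 426 CPM in the 12 E4 libraries (median 271). Its averaged log2 fold change was -0.16, with a 95% interval of -0.41 to 0.09. Scn2a was at 154 to 440 CPM (median 326) and at 247 to 459 CPM (median 380). Its averaged change was 0.12, with an interval of -0.09 to 0.33. The member with the smallest p in the 4 comparisons was Scn2a at time code 10. Scn2a there had 154, 340, 304 and 315 CPM in E3-10 1 to 4 and 366, 266, 459 and 406 CPM in E4-10 1 to 4. The groups overlapped, and the change was 0.34 (SE 0.18, adjusted p = 0.943 in edgeR). Without E3-10 1 it was 0.19, and the averaged change of Scn2a was 0.06. Without E4-05 4 the averaged change of Scn1a was -0.26.

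The 95% intervals of the averaged change give the precision reached for each gene. The interval was narrowest for Scn2b, from -0.08 to 0.16, and ran from -0.30 to 0.07 for Scn8a. It ran from -0.48 to 0.34 for Scn3a, from -0.29 to 0.36 for Scn3b and from -0.45 to 0.68 for Scn9a. For Scn4b it ran from -0.56 to 0.51. A change of 2-fold, 1 on the log2 scale, lies outside each of these intervals of the averaged change. The intervals at single time codes were wider and held a 2-fold change for some genes. Examples are Scn9a at 05, from -0.50 to 1.46, and Scn4b at 10, from -0.55 to 1.38.

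Time codes gave no called member either. The titles place time code 05 in January and February, 10 in March and April, and 15 in May and June. Time code and these titled months therefore cannot be told apart. For 10 against 05, 0 of 8 were called (0% of all genes), with changes of -0.08 to 0.49. For 15 against 10, 0 of 8 were called (0.00489% of all genes, which is 1), with changes of -0.71 to 0.22. For 15 against 05, 0 of 8 were called (0.0538% of all genes, which is 11), with changes of -0.37 to 0.22. The lowest value was that of Scn4b for 15 against 10. Scn4b had 583, 240, 371 and 223 CPM in E3-10 1 to 4, 262, 244, 764 and 896 CPM in E4-10 1 to 4, 439, 134, 297 and 399 CPM in E3-15 1 to 4, and 170, 300, 288 and 170 CPM in E4-15 1 to 4. The 3 highest values at time code 10 came from the libraries named above for Drd1 or Slc6a5, and the time codes overlapped. The part of striatal or hindbrain tissue in this difference was not tested. The change was -0.71 (SE 0.31, adjusted p = 0.618 in edgeR), and without E3-10 1 it was -0.44. At an unadjusted p under 0.05, 1 of 8 members and 7.72% of all genes were called.

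Within each set of columns the E codes were compared separately. In the 16 other libraries 0 of 8 members were called (0% of all genes), with averaged changes of -0.08 to 0.37 and adjusted p of 1 in edgeR. In the 8 hindbrain-rich libraries, 4 of each E code, 0 of 8 were called (0% of all genes). At an unadjusted p under 0.05 there were 3 of 8 members and 4.21% of all genes. Those 3, Scn1a, Scn8a and Scn4b, varied together over the 8 libraries and are not counted as 3 separate results. Pearson's r of log2 CPM was 0.93 for Scn1a with Scn4b, 0.75 for Scn1a with Scn8a and 0.66 for Scn8a with Scn4b. These r include the E code difference itself, so they cannot show whether the genes vary together apart from it. In the 16 other libraries r for the same pairs was -0.07, 0.25 and -0.05. Scn1a had 373, 490, 327 and 418 CPM in the E3 libraries of this set (E3-05 2, E3-10 1, E3-10 4 and E3-15 3) and 293, 333, 313 and 297 CPM in the E4 libraries (E4-05 3, E4-10 2, E4-15 1 and E4-15 4). The sets overlapped by 1 library each way, and the change was -0.36 (SE 0.13, adjusted p = 0.954 in edgeR). Scn8a was at 407 to 500 against 352 to 440 CPM, with a change of -0.26 (SE 0.10, adjusted p = 0.954). Scn4b was at 223 to 583 against 170 to 244 CPM, with a change of -0.65 (SE 0.27, adjusted p = 0.954).

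The same E3 and E4 libraries differed in markers of cerebellum and hindbrain. The granule cell list averaged 8.95, 7.06, 8.92 and 8.67 log2 CPM in the 4 E3 libraries and 8.90, 8.09, 9.28 and 9.31 in the 4 E4 libraries. The hindbrain and spinal list averaged 4.56, 5.78, 3.22 and 4.54 log2 CPM in the E3 libraries and 3.61, 3.41, 2.51 and 2.84 in the E4 libraries, so 3 of the 4 E3 libraries lay above every E4 library. Slc6a5, of that list, was at 201, 622, 98.7 and 246 CPM against 140, 176, 79.4 and 76.2 CPM. The part of either list in these changes was not tested. Without E3-10 1, the library with the lowest granule cell and the highest hindbrain and spinal average, the change of Scn1a was -0.28 and that of Scn4b -0.41. Without E3-10 4 they were -0.45 and -0.81, with adjusted p of 0.139 and 0.161 in edgeR. The difference of the E code change between both sets of columns was tested as an interaction. It gave 0 of 8 members called (0% of all genes), and for Scn4b it was -0.96 (SE 0.55, adjusted p = 0.995 in edgeR), and -0.63 without E3-10 1.

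**Figure D5:**
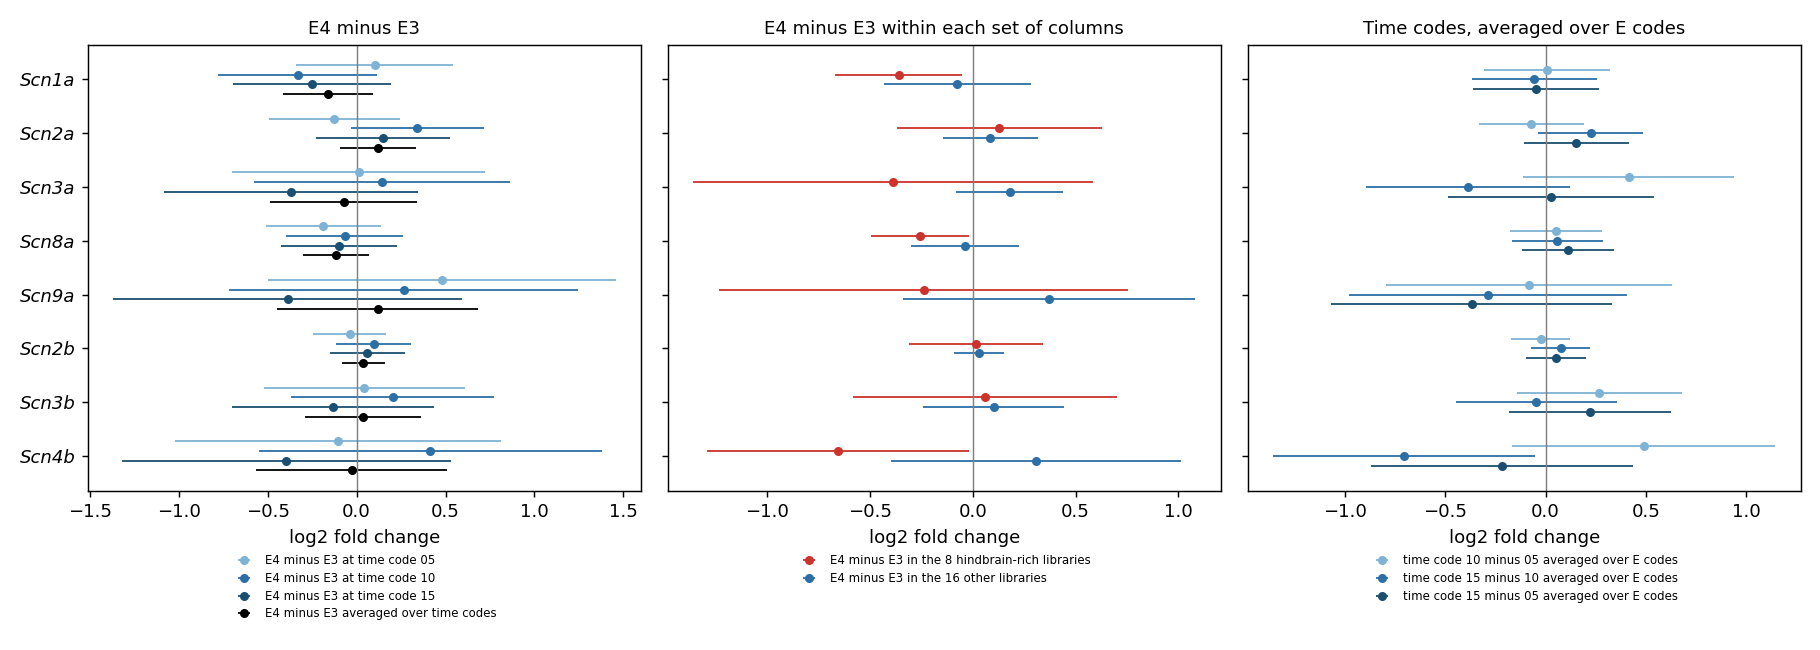
Log2 fold changes with 95% intervals from edgeR for the 8 genes: E4 minus E3 by time code and averaged (left), E4 minus E3 within the hindbrain-rich and the other libraries (middle), and differences between time codes (right). The averaged E4 minus E3 intervals are widest for Scn9a and Scn4b and narrowest for Scn2b, where the interval runs from -0.08 to 0.16.

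Partners of the channels were read from lists of 28 genes, of which 27 passed the filter. In each of the 10 comparisons 0 of the 27 were called. Of the other sodium channel genes, Scn7a, a sodium-sensing relative, was at 2.05 to 6.76 CPM in the hindbrain-rich libraries and 2.99 to 12.4 CPM in the others. Scn10a, a channel of sensory neurons, did not exceed 0.861 CPM in the other libraries and reached 3.19 CPM in the hindbrain-rich library E4-05 3. Scn4a, the skeletal muscle channel gene, did not pass the filter and had at most 35 counts in a library. The genes of the sodium leak channel, which passes a resting sodium current, leaned apart. The pore gene Nalcn and the subunit gene Unc79 had differences of -0.19 and -0.32, and Unc80 had 0.35, with overlap for each.

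Anchoring genes of initial segments and nodes overlapped between the sets in 11 of 11 cases. Ank3, which encodes the ankyrin G that holds the channels, was at 479 to 646 against 439 to 640 CPM, with a difference of 0.02 (SE 0.07). Ank2 had a difference of 0.28 (SE 0.06), the spectrin gene Sptbn1 -0.40 (SE 0.06) and the adhesion gene Cntn1 -0.08 (SE 0.05). Named after their values were seen, the adhesion gene Cntn2 had the highest difference of the 11, 0.86 (SE 0.10), and Trim46, whose product organizes microtubules of the initial segment, the lowest, -0.71 (SE 0.07). Of the 4 intracellular fibroblast growth factor homologous genes, whose proteins bind the channel's tail and tune inactivation, 2 had ranges with no overlap, in opposite directions, beside the 7.72% of all genes that were lower and 5.97% that were higher in this way. Fgf13 was at 46.4 to 127 CPM in the hindbrain-rich libraries and 131 to 204 CPM in the others, a difference of -1.38 (SE 0.15). Fgf11 was at 52.7 to 91.7 against 32.4 to 51.5 CPM, a difference of 0.97 (SE 0.09). Fgf12 had a difference of -0.25 (SE 0.06) and Fgf14 of 0.21 (SE 0.10), both with overlap. Among genes of channel turnover and cleavage, the ubiquitin ligase genes Nedd4l and Nedd4 had differences of -0.81 (SE 0.11) and 0.04 (SE 0.04). Bace1, whose protease cuts beta subunits, had 0.04 (SE 0.06).

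The genes most like each member were sought among 10924 genes, by Pearson's r of log2 CPM over 24 libraries after the mean of each set of columns was removed. These values are given as a description, since the libraries share differences in brain region and scaling. Scn1a was most like Fbxo9 and Rab11fip5 (r = 0.91 for both). Scn2a was most like the AMPA receptor gene Gria2 and the RNA-binding protein gene Celf1 (r = 0.94 for both). Scn8a was most like the adenylyl cyclase gene Adcy9 (r = 0.94) and the kinase gene Camk1d (r = 0.92). Scn3a was most like Tmem179 and Pnma2 (r = 0.95 for both), and Scn9a most like Grb10 and Vat1 (r = 0.94 for both). Of the beta subunit genes, Scn2b was most like the potassium channel gene Kcnd2 (r = 0.90) and Strn3 (r = 0.86). Scn3b was most like the ephrin receptor gene Epha5 (r = 0.93) and Snx10 (r = 0.89), and Scn4b most like the growth factor gene Tgfa (r = 0.95) and the integrin gene Itga9 (r = 0.94). Members themselves were left out of this search.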

How the data were processed

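RNA was extracted with TRIzol, made into libraries with a NEBNext Ultra RNA kit and sequenced on an Illumina NovaSeq, per the labels' protocols. Reads were aligned with HISAT2 2.1.0 to mm39 and counted with featureCounts 2.0.6, per the submitters' processing notes. The annotation and strand setting are not given in the sources used here. The deposited values are raw read counts per gene symbol, in 1 table of 40836 genes and 24 numbered columns, joined to libraries by the column number in each label. Between 62.6% and 70.8% of low counts per library were even, so read pairs were often counted as 2 and the counts overstate fragments.

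The filter on low counts (filterByExpr, 6 groups) kept 20437 genes. R 4.3.3 and edgeR 4.0.16 fitted TMM factors, 6 group coefficients and 1 term for the 8 hindbrain-rich libraries, with 17 residual degrees of freedom, quasi-likelihood tests and Benjamini-Hochberg adjustment over all genes (threshold 0.05). The 16 other libraries alone had 10 residual degrees of freedom and the 8 hindbrain-rich ones, with additive time codes, 4. Log2 CPM used a prior count of 2. Exon lengths and gene order come from a GRCm38 annotation.

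Alternatives were RLE and upper-quartile factors, no factors, no filter, a filter of 1 CPM in 8 libraries, DESeq2 1.42.0, limma-voom (limma 3.58.1), a replicate block, no set term, a term for the remainder of the column number, terms for the 8 sets of 3 adjacent columns, a titled month covariate, and leaving out libraries (those with Hbb-bs above 100 CPM, those with Gh above 1000 CPM, and each library in turn).

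The rule for named genes takes all 8 members, up to 4 measured genes of each further list with the highest mean CPM and any that passed the test, and the 2 genes closest to each member. Scn4a, Cntn2 and Trim46 were added after their values were seen. A few list genes that the rule takes are not reported here. Members, lists, the set of hindbrain-rich libraries and tests were chosen with earlier results of these data known.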

Additional observations from a re-analysis of the deposited data

Results flagged for a closer look

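Scn4b in the hindbrain-rich library E3-10 1 stood apart from the other 7 of its set, at 583 CPM against 170 to 297 CPM. Its distance to the nearest of them was 0.692 of the range of the set, above Dixon's critical value for 8 libraries. A total of 56 groups of libraries and genes were examined in this way, and chance alone marks about 1 in 20. The same library had the highest Scn1a (490 CPM) and the lowest Scn2a (154 CPM) of the 24, and the highest Slc6a5 (622 CPM). The part of tissue content in these values was not tested.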

How the results depend on the processing

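The count of sodium channel genes called was 0 in each of the 10 comparisons under every alternative run for that comparison. Alternatives numbered 37 for E4 against E3 over all 24 libraries and 35 for each pair of time codes. They numbered 28 for the interaction, 20 within the 16 other libraries and 12 within the hindbrain-rich ones. Over 2504 values for 80 pairs of a gene and a comparison, the lowest adjusted p was 0.139. The sign changed in 136 of these values, over 39 pairs, and 0 of them were called. With library number as a replicate block, 0 members were called in each comparison. Residuals of libraries sharing a number had a median correlation of -0.01 over 60 pairs, against 0.01 over 180 pairs with different numbers. These residuals also hold differences in brain region between libraries, so they cannot decide whether library numbers pair the libraries. The count of members whose ranges did not overlap between the sets of columns was 1, with a range of 1 to 2 on leaving out each library. The mean difference of Scn8a between the sets turned from -0.058 to 0.045 without normalization factors.

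Counts over all genes moved more. For E4 against E3 at time code 10 the count of 2 became 5 with no filter, 40 with DESeq2, 4 with limma-voom, 1 with the replicate block, the term for the remainder or without libraries high in Hbb-bs, and 0 without the set term, with terms for adjacent columns or without libraries high in Gh. For 15 against 05 the count of 11 became 7 with upper-quartile factors or the stricter filter, 36 with DESeq2, 1 with the block, and 0 with limma-voom, without the set term, with the term for the remainder, or without libraries high in Hbb-bs or Gh. For 15 against 10 the count of 1 became 17 with DESeq2 and 0 with the block, without the set term or with the term for the remainder. For 10 against 05 DESeq2 called 18 genes and the main test 0. Within the 8 hindbrain-rich libraries the count of 0 became 3 with no filter, 8 with DESeq2 and 4 with the block, and DESeq2 called 1 in the 16 others. On leaving out each library these counts ran from 0 to 4 for E4 against E3 at 10, from 0 to 10 for 15 against 05, from 0 to 3 for 15 against 10, from 0 to 2 for 10 against 05 and from 0 to 3 within the hindbrain-rich libraries. Genes whose ranges did not overlap numbered 2798 and ran from 2816 to 3820 on leaving out a library. The cause of these shifts was not tested.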
